A study of Rattus norvegicus with 24 samples.

Results

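Gene expression was compared between the left ventricles of 6 rats fed a high saturated fat chow after coronary ligation and 6 rats fed normal chow after the same operation, 12 of the 24 arrays of the study, chosen by their labels alone. All rats were male Wistar rats of 300 to 350 g, and the other 12 had a sham operation and ate the fat chow (6 rats) or the normal chow (6 rats). Feeding began straight after surgery, and fat supplied 60% of the calories in the fat chow (25% palmitic, 33% stearic and 33% oleic acid). Ligation of the left main coronary artery kills the muscle that it feeds, and the remaining ventricle fails over time. How long the rats were fed, how large the infarcts were and which region of the ventricle was sampled are not stated in the labels. The light cycle was reversed, and the rats were handled between hours 3 and 6 of darkness. Each rat had its own Illumina bead array, so the unit of replication was the animal and nothing in the labels pairs the animals.

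By background there were 12 high arrays (median signal of probes that were never detected 143.6 to 160.7) and 12 low ones (81.6 to 93.0), read from the values since the files name no chip or date. The high-background arrays held 5 of the 6 ligated fat rats but 2 of the 6 ligated chow rats, so all differences below were fitted in limma with the background level as a block, and 2159 of 10391 genes (20.8%) differed with that level. Between 8884 and 10475 of 22517 probes were detected per array. Precision is limited by having 6 animals a group. Ligated chow animals 4 and 21 and ligated fat animal 18 stood apart, with mean correlations to the other arrays of 0.971 to 0.977, against at least 0.981 for the other 21. The tissue label fitted its markers in that 15 of 16 cardiomyocyte genes were measured, while Myh1, Myh4 and Ahsg, markers of skeletal muscle and liver, were detected on 0 arrays, although 4 of 9 skeletal muscle and 1 of 4 liver markers on the array passed the detection filter.

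The heart burns mainly fatty acids. Fatty acids that enter the muscle cell also bind the nuclear receptor PPAR-alpha, which pairs with the retinoid X receptor on DNA sites made of a repeated half-site and switches on genes that take up, store and oxidise fat and that hold back glucose oxidation. In failing hearts this programme is known to be turned down as the muscle leans towards glucose, and a diet rich in fat supplies the receptor's ligands.

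The promoters of 4 genes are shown because these genes, all known targets of that receptor, carried the largest diet differences of the lipid group with a sequence at hand. Each is the RefSeq window from 250 bases before to 50 bases after the start on the rat build GRCr8, in lower case, and the capitals mark the core of a direct repeat (GGNCANAGG), the half-site AGGTCA, which overlaps that core, or a TATAAA box, searched on both strands. Acot1 lies at chr6:109367024-109367323 on the plus strand, Angptl4 at chr7:15258632-15258931 on the minus strand, Pdk4 at chr4:34568280-34568579 on the minus strand and Ucp3 at chr1:164227660-164227959 on the plus strand.
Acot1: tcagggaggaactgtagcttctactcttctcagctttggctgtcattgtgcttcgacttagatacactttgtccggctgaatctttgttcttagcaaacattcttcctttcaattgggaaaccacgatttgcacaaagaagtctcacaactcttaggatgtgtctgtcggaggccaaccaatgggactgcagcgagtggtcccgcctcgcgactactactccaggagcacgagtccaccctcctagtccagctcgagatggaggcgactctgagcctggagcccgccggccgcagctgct
Angptl4: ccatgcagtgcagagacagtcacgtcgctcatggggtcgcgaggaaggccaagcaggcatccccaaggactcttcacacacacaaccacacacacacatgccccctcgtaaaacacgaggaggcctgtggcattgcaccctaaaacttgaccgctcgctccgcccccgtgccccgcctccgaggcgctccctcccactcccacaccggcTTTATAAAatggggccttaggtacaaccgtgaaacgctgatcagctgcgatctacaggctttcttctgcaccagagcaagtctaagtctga
Pdk4: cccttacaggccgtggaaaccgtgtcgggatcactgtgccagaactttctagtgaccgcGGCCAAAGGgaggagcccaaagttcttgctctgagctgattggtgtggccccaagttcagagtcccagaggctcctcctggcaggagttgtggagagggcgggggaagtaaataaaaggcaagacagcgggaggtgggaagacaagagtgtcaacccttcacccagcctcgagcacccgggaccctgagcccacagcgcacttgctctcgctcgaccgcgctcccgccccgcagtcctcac
Ucp3: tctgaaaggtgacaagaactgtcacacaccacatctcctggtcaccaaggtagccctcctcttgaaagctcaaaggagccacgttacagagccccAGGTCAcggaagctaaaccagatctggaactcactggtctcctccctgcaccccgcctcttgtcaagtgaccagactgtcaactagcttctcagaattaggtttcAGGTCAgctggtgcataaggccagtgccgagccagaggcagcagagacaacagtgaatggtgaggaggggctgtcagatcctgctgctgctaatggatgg
Pdk4 held the core 191 to 183 bases before its start and Ucp3 held the half-site at 2 places, 155 to 150 and 50 to 45 bases before, while Angptl4 held overlapping TATAAA matches on both strands, between 41 and 34 bases before. The Acot1 window held none of these letters. The core stood in 1 of 25 promoters of the PPAR-alpha-responsive list (4%) and in 8.33% of 5417 promoters of tested genes, and the half-site in 5 of 25 (20%) and in 12.7%. A longer form of the repeat, the same core followed by NC, was in 0 of the 25 and in 2.14% of the tested promoters. These shares describe the letters in a short window and say nothing of where the receptor binds.

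Across all genes the diet difference in ligated hearts was small. limma called 0 of 10391 genes at a Benjamini-Hochberg adjusted p under 0.05 (0%), and the smallest adjusted p was 0.0804, that of Acot1. At an unadjusted p under 0.05 it gave 402 genes, 180 higher (1.73%) and 222 lower (2.14%) on fat, fewer than the 519.6 that make up 5% of the genes tested. Without the block 1002 genes passed that looser limit and Acot1 alone was called (adjusted p = 0.0111). On the ligated arrays alone, with the block, limma called 0 genes and the smallest adjusted p was 0.9997. In the main fit the median difference over all genes was -0.01 on the log2 scale. There 48.4% of genes lay above 0, and the median 95% interval reached 0.27 to each side. Since no gene was called with the block, the values below are given as measured differences, and "higher" and "lower" state their direction only.

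Genes of fatty acid handling stood at the head of the list. The lipid genes Acot1, Angptl4, Pdk4 and Acaa2 were among the 10 genes with the smallest p on the higher side, and each was also higher on fat in the sham rats. The plot of these genes by animal shows how far the ligated diet groups lay apart.

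Acot1, a cytosolic thioesterase that splits fatty acyl-CoA into free fatty acid and coenzyme A, had a log2 signal of 5.75 in the lowest, 6.32 in the median and 7.73 in the highest ligated chow rat, against 7.74, 8.29 and 9.12 in the ligated fat rats. All 6 fat rats lay above all 6 chow rats, a separation that 11 of the 10391 genes (0.106%) showed, and the margin was narrow because chow animal 38 stood far above the other chow rats. The difference was 1.77 (SE 0.31, 95% interval 1.12 to 2.41, adjusted p = 0.0804 in limma), or 3.40-fold. It was 1.41 within the high-background arrays and 2.09 within the low-background arrays, where a single fat rat remained. Without chow animal 38 the difference was 2.14 and was called (adjusted p = 0.00168). Leaving out the highest chow rat widens the difference by construction, so that call adds no support. With no background correction the Acot1 difference was 1.02. Its neighbour and close paralog Acot2, the mitochondrial thioesterase, differed by 0.44 (SE 0.18, adjusted p = 0.996), and the ligated groups overlapped. Whether the 50-base probes tell these paralogs apart was not tested.

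Angptl4, a secreted inhibitor of lipoprotein lipase, read 5.41, 5.86 and 7.67 at the lowest, median and highest in ligated chow rats and 7.65, 8.01 and 9.06 in ligated fat rats. The groups overlapped by a single chow rat, animal 23, and the probe was above background in 3 of 6 chow and 6 of 6 fat animals. The difference was 1.71 (SE 0.36, adjusted p = 0.448), with 1.60 and 1.66 within the high- and low-background arrays. It was called without animal 23 (1.96, adjusted p = 0.0177), the overlapping chow rat, whose removal widens the difference by construction. With no background correction the difference was 0.996.

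Pdk4, the kinase that switches off pyruvate dehydrogenase and so spares glucose, read 8.07, 8.56 and 9.32 in ligated chow rats and 8.97, 9.64 and 10.17 in ligated fat rats. The difference was 0.99 (SE 0.25, adjusted p = 0.83) and the groups overlapped.

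Acaa2, the thiolase of the last step of mitochondrial beta-oxidation, read 12.36, 12.57 and 13.13 on chow and 12.80, 13.37 and 14.24 on fat, a difference of 0.66 (SE 0.21). Ucp3, a carrier of the inner mitochondrial membrane that muscle makes when fat supply is high, read 7.12, 7.80 and 8.07 on chow and 8.11, 8.50 and 8.90 on fat, a difference of 0.69 (SE 0.26). Every fat rat lay above every chow rat for Ucp3, whereas the ranges of Acaa2 overlapped. Neither passed the test (adjusted p = 0.996 for both in limma). With the clock index, described further on, as a covariate the Ucp3 difference was 0.29 and that of Acaa2 0.88.

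**Figure D1:**
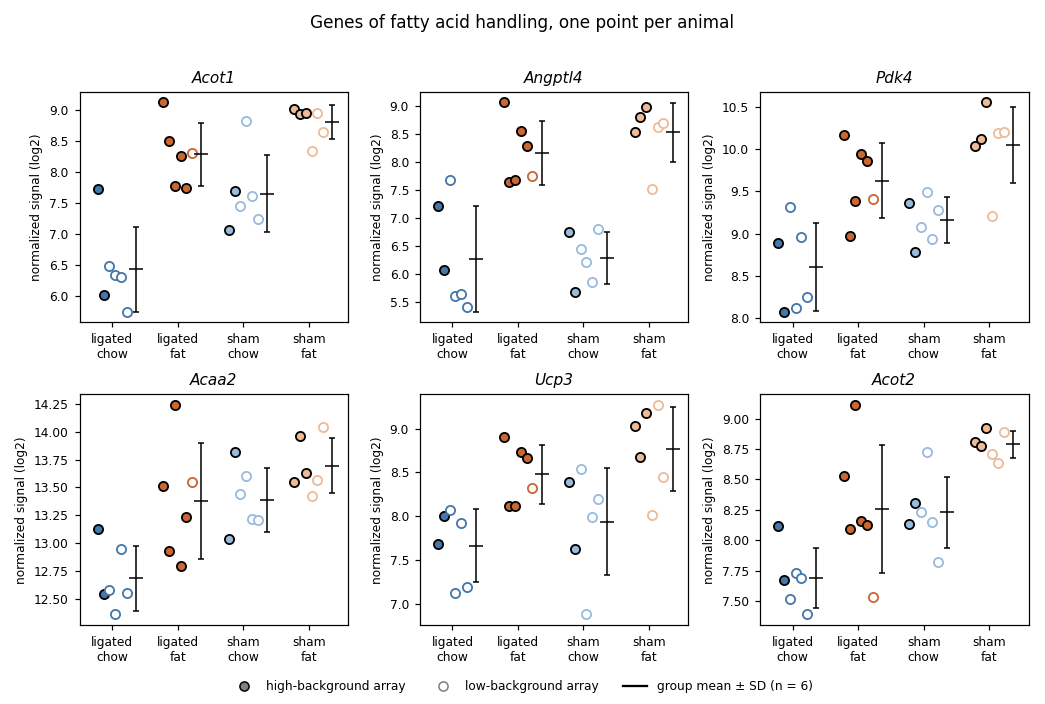
Normalized log2 signal (vertical axis) of Acot1, Angptl4, Pdk4, Acaa2, Ucp3 and Acot2 in the 4 groups (horizontal axis), with a point per animal, filled for high-background and open for low-background arrays, and the mean with SD beside each group (n = 6). The 6 ligated fat rats lie above all 6 ligated chow rats for Acot1 and Ucp3, and the ligated chow mean of Acot1 (6.44) is the lowest of the 4 groups.

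Set against the sham rats, ligated chow hearts had the lowest Acot1 level of the 4 groups, with means of 6.44 ± 0.68 in ligated chow, 7.65 ± 0.62 in sham chow, 8.29 ± 0.51 in ligated fat and 8.81 ± 0.27 in sham fat rats (SD, n = 6 each). Angptl4 averaged 6.27 ± 0.95 and 6.29 ± 0.46 in ligated and sham chow rats and 8.16 ± 0.58 and 8.52 ± 0.52 in ligated and sham fat rats, and within each diet the ranges of the groups overlapped. With 3 of 6 ligated chow rats below detection, its chow levels lie near the floor and have no order. Pdk4 averaged 8.60 ± 0.52 in ligated chow, 9.16 ± 0.27 in sham chow, 9.63 ± 0.45 in ligated fat and 10.05 ± 0.45 in sham fat rats, with overlap between each of these neighbours.

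The members of the PPAR-alpha-responsive list were chosen with earlier results of these data known, so its shares serve as description only. Of its 34 tested genes, 28 were higher on fat (82.4%), and the median difference was 0.17. At an unadjusted p under 0.05, 9 were higher (26.5%) and 0 lower. The same counts over all genes were 48.4% above 0 and 1.73% higher at that p, and 0 members were called. Beside Acot1, Angptl4, Pdk4, Acaa2, Ucp3 and Acot2, these included Me1, the cytosolic malic enzyme (0.31, SE 0.14), and Txnip, an inhibitor of thioredoxin and of glucose uptake (0.25, SE 0.11), which was named after its values were seen. Other members of known roles did not pass that limit: Cd36, a fatty acid transporter, by 0.30 (SE 0.17), Cpt1a, a gatekeeper of mitochondrial fatty acid entry, by 0.14 (SE 0.15), Ucp2 by 0.17 (SE 0.15) and Plin2, the lipid droplet coat protein, by -0.14 (SE 0.17). Lpl, lipoprotein lipase, averaged 15.78 where the highest value on any array was 15.97, so its difference of -0.04 is limited by the top of the scale. The genes of the receptor itself and of its coactivator, Ppara and Ppargc1a, differed by -0.08 (95% interval -0.62 to 0.45) and -0.01 (-0.33 to 0.32).

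Fatty acid uptake and beta-oxidation genes were higher in 25 of 32, with a median of 0.11. Many of them are also in the former list, among them Acaa2, the only member at an unadjusted p under 0.05. Acadm, the medium-chain dehydrogenase, differed by 0.19 (SE 0.10), Acad9 by -0.19 (SE 0.10) and Cpt1b, the muscle form of the gatekeeper, by 0.21 (SE 0.14). Genes of triglyceride synthesis, droplets and lipolysis were higher in 11 of 13, with a median of 0.18. Of these, Plin2, Mgll, Cidea and Lpl are also in the PPAR-alpha-responsive list. Lipe, hormone-sensitive lipase, differed by 0.36 (SE 0.17, unadjusted p = 0.0425), Mgll, which releases the last fatty acid from glycerol, by 0.29 (SE 0.16) and Gpam, the first enzyme of glycerolipid synthesis, by 0.25 (SE 0.15).

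Genes of glucose uptake, glycolysis and glycogen were higher in 21 of 28 (median 0.08), but in 17 (median 0.04) without the block and 18 (median 0.04) without animals 4, 18 and 21. Pkm, pyruvate kinase, differed by 0.40 (SE 0.17, unadjusted p = 0.0234) and Ldha, lactate dehydrogenase, by 0.32 (SE 0.14, unadjusted p = 0.0276), while Pfkl differed by 0.29 (SE 0.14) and Slc2a4, the insulin-dependent glucose transporter, by -0.16 (SE 0.14). Citric acid cycle genes, with a median of 0.01 over 30, and respiratory chain and ATP synthase genes, with 0.01 over 53, had medians near that of all genes, but 15 of the 53 were among the 60 genes with the highest mean signal, where the top of the scale limits any difference. Without the block these medians were -0.01 (13 of 30 higher) and -0.01 (25 of 53). In the first of these lists Pdk4, already described, was the only member at an unadjusted p under 0.05 and Mpc1, the mitochondrial pyruvate carrier, differed by 0.23 (SE 0.17), but by -0.01 without animals 4, 18 and 21. In the chain list Atp5mc3, a subunit of the ATP synthase rotor, was the only one (0.33, SE 0.14), and its value was 0.72 without the block. Gsr, glutathione reductase, which renews the reduced form of the cell's main antioxidant, differed by 0.37 (SE 0.11, unadjusted p = 0.00344), and the mitochondrial thioredoxin gene Txn2 by 0.14 (SE 0.12).

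**Figure D2:**
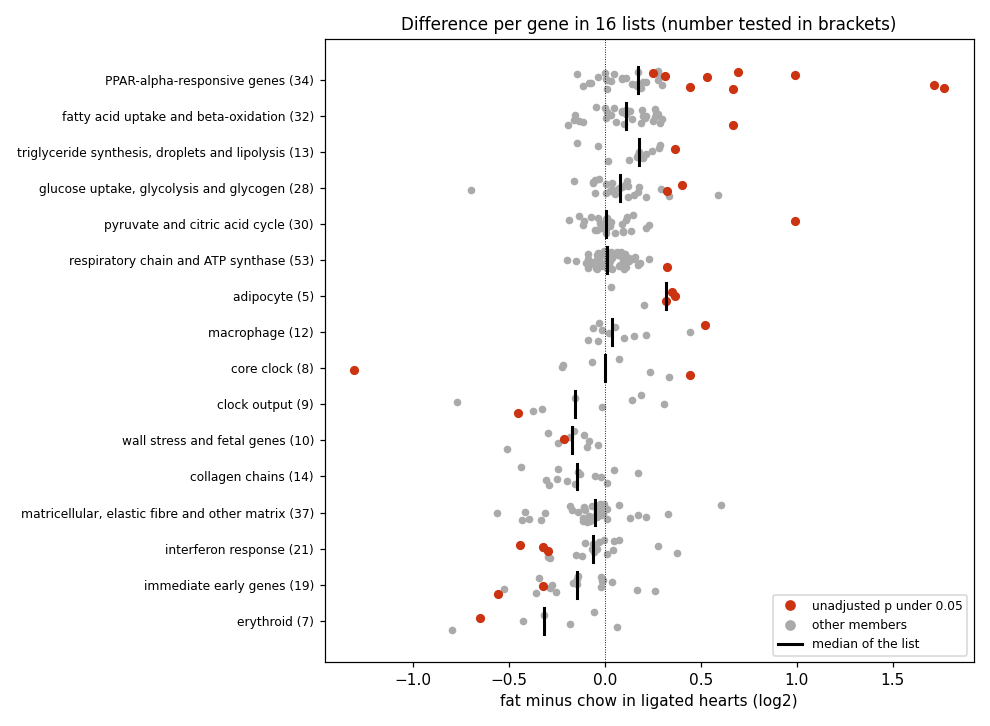
Difference between fat and chow in ligated hearts (horizontal axis, log2) for each tested gene of 16 lists, with the number tested in brackets; red points have an unadjusted p under 0.05 and black bars mark list medians. The PPAR-alpha-responsive list has its median at 0.17 and 9 red points, all to the right of 0, and the erythroid list has the lowest median at -0.31.

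Wall stress and fetal genes, which the ventricle raises under load, were lower on fat in 10 of 10, with a median of -0.17 and 0 called. Acta1, skeletal actin, read 14.25, 15.22 and 15.62 on chow and 14.17, 14.58 and 15.40 on fat, a difference of -0.51 (SE 0.29, adjusted p = 0.996). Nppa, atrial natriuretic peptide, read 12.14, 14.67 and 14.89 on chow and 12.49, 14.30 and 15.27 on fat, a difference of -0.11 (SE 0.46). For both genes the ligated groups overlapped almost entirely. The Nppa difference was -0.66 on high-background and 1.09 on low-background arrays, so its direction was not stable. Nppb, brain natriuretic peptide, differed by -0.29 (SE 0.19), Csrp3, a Z-disc stretch sensor, by -0.21 (SE 0.10, unadjusted p = 0.048) and Cacna1g, a T-type calcium channel of the fetal heart, by -0.25 (SE 0.25). Myh7, the slow myosin heavy chain of this list, read near the top of the scale at a difference of -0.18. So did the fast chain Myh6, which belongs to the sarcomere list and not to this one, at -0.04. Without animals 4, 18 and 21 the list was higher in 2 of 10 (median -0.13), and without the block in 1 of 10 (median -0.13).

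Sarcomere and Z-disc genes were higher in 9 of 19, calcium handling genes of the sarcoplasmic reticulum in 10 of 20 and ion channel genes in 11 of 30. Of these lists 8, 2 and 0 members were among the 60 genes with the highest mean signal, where the top of the scale limits any difference. In the channel list Scn4b, a sodium channel subunit, differed by -0.43 (SE 0.19, unadjusted p = 0.0295). Its sham difference had the opposite sign (0.21), and the interaction of diet and surgery was -0.65 (adjusted p = 0.875), not called.

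Collagen chains were higher in 3 of 14 (median -0.15) and matricellular and elastic fibre genes in 8 of 37 (median -0.05), with 0 members at an unadjusted p under 0.05 in either list. The collagen median was -0.08 without the block (5 of 14 higher). The matrix genes varied widely within both ligated groups. Postn, the periostin gene of activated fibroblasts, read 7.12, 9.69 and 11.05 on chow and 8.37, 9.79 and 12.10 on fat, and its difference of -0.02 had a 95% interval of -1.53 to 1.49. Col1a1 differed by -0.31 (SE 0.33), Col3a1 by -0.02 (SE 0.31), Timp1, a protease inhibitor, by 0.07 (SE 0.29) and Ccn2, connective tissue growth factor, by -0.11 (SE 0.29). Without the block the matricellular list was higher in 20 of 37 (median 0.01). Among proteases Adamts9 differed by 0.47 (SE 0.21, unadjusted p = 0.0347), and among fibroblast markers Tcf21, a transcription factor of resident fibroblasts, by -0.44 (SE 0.19, unadjusted p = 0.0293).

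Markers of other cell types were read in the same arrays, where fewer cells of a type and less RNA per cell cannot be told apart. Macrophage markers were higher in 7 of 12 (median 0.04), and their summed signal ran from 7821 to 13547 on chow and from 8598 to 13999 on fat. Without the block they were higher in 10 of 12 (median 0.14), and without animals 4, 18 and 21 in 9 of 12 (median 0.08). Mrc1, the mannose receptor of resident macrophages, differed by 0.52 (SE 0.21, unadjusted p = 0.0183) and Cd163, the haemoglobin scavenger receptor, by 0.45 (SE 0.22), whereas C1qa and Cd68 differed by 0.10 (SE 0.17) and -0.01 (SE 0.25). Mrc1 and Cd163 lay at 0.17 and 0.09 on high-background and at 0.82 and 1.06 on low-background arrays.

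Adipocyte markers were higher in 5 of 5 tested (median 0.32), 3 of them at an unadjusted p under 0.05: Fabp4, a fatty acid carrier of fat cells and capillaries, by 0.32 (SE 0.11), Pparg by 0.35 (SE 0.16) and Lipe as above. The defining markers Plin1 and Lep were detected on 0 of 24 arrays and Adipoq on 3. The summed signal of the list ran from 12689 to 21351 on chow and from 18133 to 21575 on fat. It leans on Fabp4, whose bead signal was far above those of Lipe and Pparg. Fabp4 is also in the endothelial list, which was higher in 4 of 10 (median -0.05). It differed by 0.52 on high-background and by 0.11 on low-background arrays. Without the block the adipocyte list was higher in 4 of 5 (median 0.30). The part of this list in the differences of the lipid genes was not tested.

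Red cell genes were lower on fat in 6 of 7, with a median of -0.31. Hbb-b1, a beta globin, read 12.91, 13.43 and 14.52 on chow and 12.18, 12.89 and 13.38 on fat, a difference of -0.65 (SE 0.26, unadjusted p = 0.0179). Ahsp, the chaperone of free alpha globin, differed by -0.79 (SE 0.39) and Hbb by -0.43 (SE 0.23). The beta globins Hbb and Hbb-b1 are near-identical copies that the probes may not separate. The summed signal was 83720 to 132141 in ligated chow and 63658 to 90314 in ligated fat rats, against 64728 to 89139 and 57894 to 96747 in sham chow and sham fat rats. Without animals 4, 18 and 21 the median was -0.19, with 2 of 7 higher, and Ahsp differed by -0.25. Hbb-b1 lay at -0.29 on high-background and at -1.32 on low-background arrays. Atrial markers were uneven: Myl7, the atrial light chain, ran from 7.63 to 13.87 on chow and from 8.40 to 13.48 on fat, and Dkk3 differed by 0.39 (SE 0.17, unadjusted p = 0.028). Dkk3 lay at 0.01 on high-background and at 0.87 on low-background arrays, which held a single ligated fat rat.

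Core clock genes were higher on fat in 4 of 8, with 1 at an unadjusted p under 0.05 in each direction, and clock output genes in 3 of 9 (median -0.16), with 0 called in either list. Nr1d1, the nuclear repressor REV-ERB-alpha of the circadian loop, read 7.15, 8.22 and 9.15 on chow and 5.86, 6.56 and 8.42 on fat, a difference of -1.30 (SE 0.57, unadjusted p = 0.03, adjusted p = 0.996). Tef and Dbp, output factors driven by the loop, differed by -0.77 (SE 0.41) and -0.33 (SE 0.31), Bhlhe40 by -0.45 (SE 0.21, unadjusted p = 0.0402), Per3 by -0.07 (SE 0.11), and the activator Bmal1 and the repressor Cry1 by 0.33 (SE 0.29) and 0.45 (SE 0.20, unadjusted p = 0.0395). An index of 4 of these genes (Dbp, Tef, Per3 and Nr1d1, each centred and scaled over the arrays) averaged 0.33 ± 0.60 in ligated chow and -0.61 ± 0.79 in ligated fat rats (SD, n = 6), and -0.03 ± 0.92 and 0.31 ± 0.66 in sham chow and sham fat rats. The ranges of the ligated groups overlapped. The labels give a window of 3 hours and no time for single animals, so a difference in time of day and one in the clock cannot be told apart. With the index as a covariate limma called 0 genes and gave 577 at an unadjusted p under 0.05, and Acot1 differed by 1.86, Angptl4 by 1.31 and Pdk4 by 0.79.

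Interferon response genes were higher in 6 of 21 (median -0.06, and -0.15 without the block) with 3 lower at an unadjusted p under 0.05: Oasl by -0.44 (SE 0.16), the transcription factor Irf1 by -0.30 (SE 0.12) and the antiviral GTPase Mx2 by -0.32 (SE 0.15). Immediate early genes were higher in 3 of 19 (median -0.15) with 2 lower at that p: Atf3 by -0.56 (SE 0.20) and Jun by -0.32 (SE 0.13). Akt1, the insulin-signalling kinase, differed by 0.44 (SE 0.17, unadjusted p = 0.0134).

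Outside lipid metabolism the smallest p-values belonged to single genes of varied function, none of them called. On the higher side Pik3c2g, a class II phosphoinositide kinase, read 6.04, 7.66 and 10.44 on chow and 9.64, 9.92 and 11.11 on fat, a difference of 1.97 (SE 0.54, adjusted p = 0.969). A single chow rat, animal 38, lay among the fat rats, and without it the difference was 2.67 (adjusted p = 0.0431). Leaving out that rat widens the difference by construction. Ptgds, which makes prostaglandin D, read 9.21, 9.60 and 10.11 on chow and 9.92, 10.39 and 10.62 on fat, a difference of 0.83 (SE 0.21, adjusted p = 0.83). Fut8, a fucosyltransferase of N-glycans, differed by 0.55 (SE 0.16) and Pex7, an import receptor of peroxisomes, by 0.47 (SE 0.15).

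On the lower side Cyp26b1, which breaks down retinoic acid, read 6.27, 7.06 and 7.88 on chow and 5.61, 6.26 and 6.95 on fat, a difference of -1.06 (SE 0.27, adjusted p = 0.83). The groups overlapped, and with no background correction the difference was -0.57. Without chow animal 38 it widened to -1.41 (adjusted p = 0.029 in limma). Animal 24 was then the only ligated chow rat on a high-background array, so that call adds no support. Stc1, a secreted glycoprotein of calcium and phosphate balance, read 9.29, 9.68 and 10.08 on chow and 8.71, 8.96 and 9.62 on fat, a difference of -0.65 (SE 0.17, adjusted p = 0.83). Klf5, a transcription factor known to act on Ppara in mouse heart, differed by -0.66 (SE 0.17, adjusted p = 0.83), with -0.32 and -0.97 within the high- and low-background arrays. The others were Egfl7, an endothelial secreted protein (-0.37, SE 0.10), the kinase Prkcq (-0.53, SE 0.15), the fibrinogen chain Fgg (-0.69, SE 0.20), which was detected on 11 of 24 arrays, Kdsr of ceramide synthesis (-0.42, SE 0.12), Thumpd1 (-0.35, SE 0.10), the growth factor Mdk (-0.48, SE 0.15) and the RNA editing enzyme Adar (-0.39, SE 0.12).

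**Figure D3:**
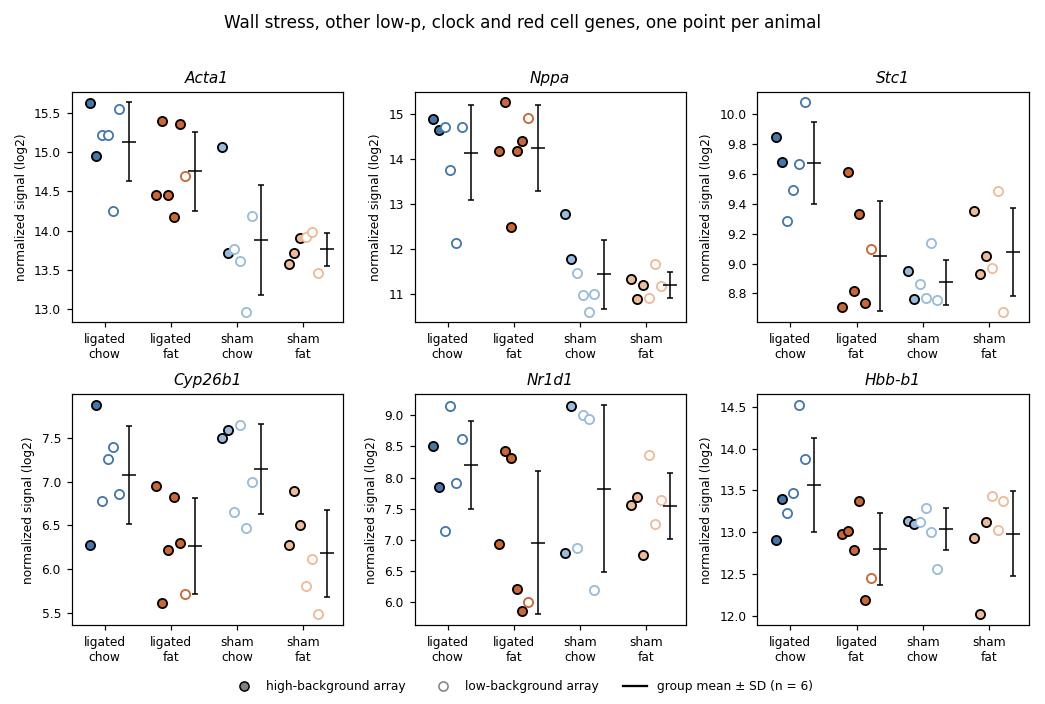
Normalized log2 signal (vertical axis) of Acta1, Nppa, Stc1, Cyp26b1, Nr1d1 and Hbb-b1 in the 4 groups (horizontal axis), drawn as in the plot of lipid genes with a point per animal and the mean with SD (n = 6). The ligated groups overlap for all 6 genes, with differences between -0.11 (Nppa) and -1.30 (Nr1d1).

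Of 10391 genes, 11 (0.106%) had every ligated fat rat above every ligated chow rat and 5 (0.0481%) had every fat rat below. The share that shuffled labels would give was not tested, so nothing is read from these counts. The ranges also take no account of the background level. Beside Acot1 and Ucp3, the named genes above were Clu, the secreted chaperone clusterin (0.40, SE 0.15), Maoa, which breaks down serotonin and noradrenaline (0.67, SE 0.25), Ogg1, a DNA repair glycosylase (0.50, SE 0.16), and Akap3 (0.26, SE 0.10). Below were Serpinb6b (-0.35, SE 0.13) and Snapc4 (-0.37, SE 0.13). These 6 were chosen after their values were seen, each had an adjusted p of 0.996, and the others that separated carry provisional names.

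Of the genes with the smallest p, 9 higher and 10 lower ones were also read within each background level. The fit they were chosen from combines both levels, so a shared direction is largely fixed by that choice and nothing is read from it. The low-background arrays held a single ligated fat rat.

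**Figure D4:**
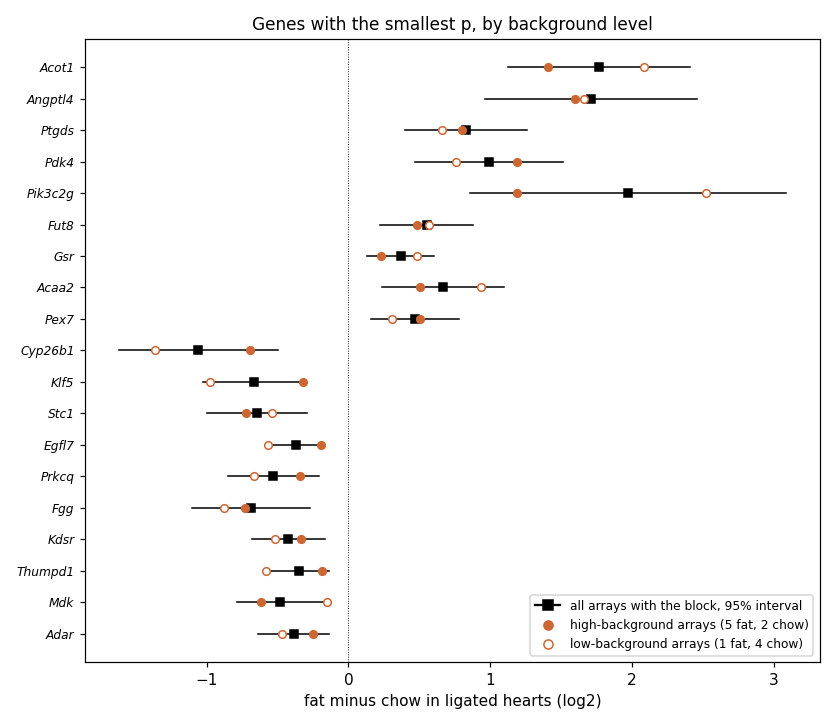
Difference between fat and chow in ligated hearts (horizontal axis, log2) for 9 higher and 10 lower genes with the smallest p (vertical axis), with squares and 95% intervals for all arrays under the block, filled circles for the high-background arrays (5 fat, 2 chow) and open circles for the low-background arrays (1 fat, 4 chow). Acot1 lies at 1.77, 1.41 and 2.09 in these 3 fits, and Pik3c2g at 1.97, 1.19 and 2.52.

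The same diet contrast in the sham rats, which shares no animal with the ligated one but shares its variance and block, called 1 gene, Angptl4 (0.00962%), and gave 688 genes at an unadjusted p under 0.05 (6.62%). Across the 10391 genes, which are not independent replicates, the ligated and sham differences were nearly unrelated (Pearson r = 0.05, Spearman rho = -0.03). The median size of a ligated difference was 0.09, against a 95% interval of 0.27 to each side. With most differences inside their intervals, r cannot show whether the diet effects were alike. Of the genes at an unadjusted p under 0.05 in each, 32 had the same sign, 7.96% of the ligated and 4.65% of the sham set, and 18 had opposite signs. The sham and ligated differences, side by side, were 1.13 and 1.77 for Acot1, 2.17 and 1.71 for Angptl4, 0.89 and 0.99 for Pdk4 and 0.79 and 0.69 for Ucp3. Some other lipid genes were less alike, with 0.30 and 0.66 for Acaa2, 0.42 and 0.14 for Cpt1a and -0.07 and 0.31 for Me1. The PPAR-alpha-responsive list was higher in 28 of 34 in both, with medians of 0.14 and 0.17. Pik3c2g (1.97 in both) and Cyp26b1 (-1.05 and -1.06) had similar values. The interactions of Acot1, Angptl4, Pdk4, Ucp3, Pik3c2g and Cyp26b1 lay between -0.46 and 0.64.

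**Figure D5:**
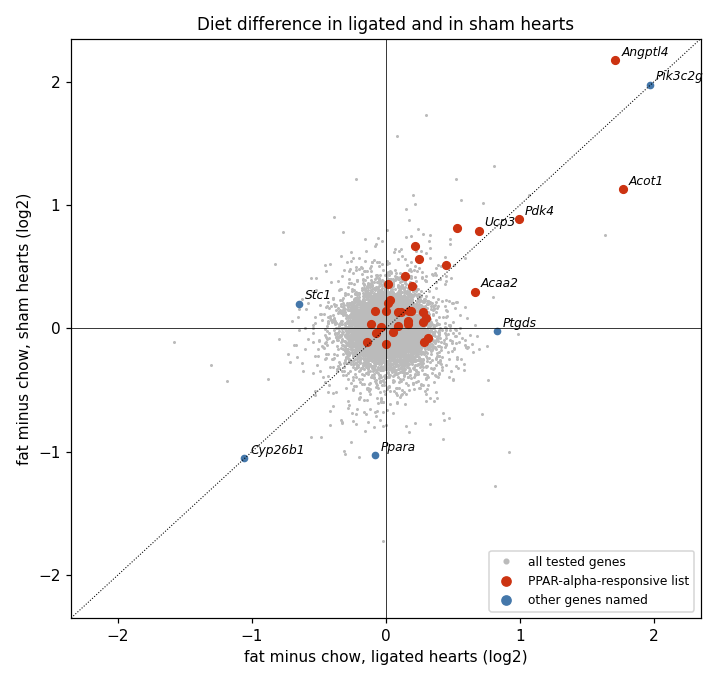
Difference between fat and chow in ligated hearts (horizontal axis, log2) against the same difference in sham hearts (vertical axis, log2), with a point per gene, the PPAR-alpha-responsive list in red, other named genes in blue and the line of equal difference dotted. Most genes form a round cloud at 0 (r = 0.05), and Acot1, Angptl4, Pdk4, Ucp3 and Pik3c2g lie out along the line.

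The test of the interaction itself called 0 genes and gave 580 at an unadjusted p under 0.05 (5.58%), so for 0 genes was the diet difference shown to depend on the operation. Among the genes named here the smallest interaction p-values were those of Stc1 (-0.85, unadjusted p = 0.00112) and Atf3 (-0.96, unadjusted p = 0.00142). Stc1 differed by -0.65 in ligated and 0.20 in sham rats, Atf3 by -0.56 and 0.41, Ptgds by 0.83 and -0.02 and Tef by -0.77 and 0.78. Ppara, the receptor gene, differed by -0.08 in ligated and by -1.03 in sham rats (interaction 0.95, unadjusted p = 0.0123). Its means were 7.27 ± 0.50 in ligated chow, 7.25 ± 0.46 in ligated fat, 7.88 ± 0.41 in sham chow and 6.87 ± 0.44 in sham fat rats (SD, n = 6). Without animals 4, 18 and 21 its ligated difference was -0.47, so the contrast with the sham rats leans on these animals. The ligated difference was -0.07 on high-background and -0.27 on low-background arrays.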

How the data were processed

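RNA from the left ventricle of 24 rats was hybridised, 1 rat per array. The deposited table holds the bead signal (intensity) of 22517 probes without normalization, with BeadStudio 3 named in the submitters' processing notes, and a detection p-value per probe and array, per the file headers. The authors also deposited normalized intensity values, by a method the sources used here do not give, and these were an alternative. The signal was corrected and quantile-normalized with neqc of limma 3.58.1 in R 4.3.3 (offset 16, negative controls inferred from the detection p-values) and put on the log2 scale. A probe was kept if 6 or more arrays had its detection p under 0.05 (10540 probes), and the probe with the highest mean stood for each of 10391 genes. Names came from RefSeq by accession (6330 probes), symbol (4401) or synonym (1404); 10185 probes kept the file's name and 197 had none.

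A limma model with 4 group means and the background level as a block (19 residual degrees of freedom) was fitted on all 24 arrays, with empirical Bayes moderation and Benjamini-Hochberg adjustment over all genes, and called a gene at an adjusted p under 0.05. Named genes were the 10 with the smallest p in each direction, up to 3 members with the smallest p per list described, and a fixed set of lipid, wall stress, matrix and clock genes; exceptions are stated, and 2 genes that the rule takes are not reported here. The lists and genes were chosen with earlier results of these data known. The code was tested on simulated data. Alternatives covered the block, background correction, normalization, filters, array weights, the clock index, the arrays fitted and each animal left out; leaving out animals 4, 18 and 21 together was chosen after seeing the data. Nothing says whether the animals came from separate cages or batches, so p-values measure the spread between these animals.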

Additional observations from a re-analysis of the deposited data

Results flagged for a closer look

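Within a group of 6 animals, a highest or lowest value was picked out where its gap to the nearest animal took up more of the group's range than Dixon's 95% critical value for 6 samples, a limit that chance passes in about 1 of 20 groups. Of 178 groups examined, 13 passed, and all values here are log2 signals. Ligated fat animal 28 accounted for 5: it was highest for Col1a1 (11.55, next 10.30), Cd68 (9.96, next 9.17) and Klf5 (7.92, next 7.34) and lowest for Txnip (14.97, next 15.17) and Fabp4 (13.86, next 14.16). Ligated chow animal 21 accounted for 4: it was lowest for Nppb (13.73, next 14.36), Timp1 (10.18, next 10.63) and Ccn2 (13.32, next 14.40) and highest for Slc2a4 (12.72, next 12.38). Ligated chow animal 38 was highest for Acot1 (7.73, next 6.49) and lowest for Myh7 (15.63, next 15.78). Ligated chow animal 4 was highest for Serpinb6b (8.58, next 8.04) and ligated fat animal 5 for Cd36 (14.15, next 13.58). Nothing used here gives infarct size, and its part in these values was not tested.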

How the results depend on the processing

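The count of called genes in ligated hearts, 0 with the block, was 1 without it and 1 on the low-background arrays alone, where a single fat rat remained, and it ranged from 0 to 3 when each animal was left out. The 3 came without ligated chow animal 38 (Acot1, Pik3c2g and Cyp26b1). That fit kept animal 24 as the only ligated chow rat on a high-background array. Without ligated chow animal 23 Angptl4 was called, and without sham chow animal 7 Acot1 was (adjusted p = 0.0137). All other settings gave 0. At an unadjusted p under 0.05 they gave 165 to 577 genes where 10391 were tested. With no filter these were 893 of 22050 and with the stricter detection limit 309 of 8143. Without animals 4, 18 and 21 they were 318. The smallest adjusted p in limma was 0.9997 on the ligated arrays alone and 0.878 without ligated chow animal 24. It was 0.711 without ligated fat animal 37, the only ligated fat rat on a low-background array. The sham count of 1 was 0 on high- or low-background arrays alone and with no filter, 2 without the block or with a trended robust fit, 3 with no background correction, median scaling, normalization within level, the authors' table or the clock index, 5 on the sham arrays alone, 6 without animals 4, 18 and 21 and 7 with array weights, and ranged from 0 to 4 when each animal was left out. The interaction gave 0 in every setting run. Of 88 genes examined, 15 had the opposite sign on low-background arrays and 3 on high-background arrays. Among those at an unadjusted p under 0.05 these were Acot2 (-0.045) and Mx2 (0.10), both on low-background arrays. Others were Nppa (1.09), Postn (1.15), Cacna1g (0.45), Col3a1 (0.43), Ccn2 (0.35), Col1a1 (0.07) and Myl7 (-1.43) on low-background and C1qa (-0.36) on high-background arrays. The cause of these shifts was not tested. No paired analysis was possible because the groups share no animal numbers. Acot1 and Angptl4 lay near background in ligated chow rats, which limits their fold.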
